A study of Mus musculus with 6 samples.

Results

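Solute carriers are membrane proteins that move amino acids, sugars, nucleosides, vitamins, metal ions, protons and many metabolites across the cell surface and across the membranes of mitochondria, lysosomes and the Golgi. They work by changing shape around their substrate, either letting it run down its own gradient or coupling it to the movement of another ion. In macrophages, carriers of this family feed the metabolic shift that follows bacterial stimulation, move peptides and amino acids out of lysosomes, and share out iron, zinc and copper between the cell and a microbe. The transcripts were measured in mouse bone-marrow-derived macrophages, and both groups are homozygous for GRdim, an allele of the glucocorticoid receptor with impaired dimerization. The cells were grown in medium conditioned by L-929 fibroblasts, a source of the growth factor M-CSF, and moved to serum-free medium after 5 days.

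The samples form 2 groups of 3, cells given dexamethasone (Dex), a synthetic glucocorticoid, at 1 µM overnight and then lipopolysaccharide (LPS) for 6 h (LPS+Dex), and cells given LPS for 6 h without Dex (LPS). The groups are those of the sample titles, since the growth protocol, which is the same text for every sample, mentions Dex for all of them. Wild-type cells and unstimulated cells were not analysed here, and nothing below bears on what the allele or LPS changes. Whether the 3 samples of a group are separate animals, cultures or technical repeats is not stated, so the spread behind the deposited test may be technical. Levels are in FPKM, a fragment count divided by transcript length and library total. The authors' deposited table holds 1 such value per gene and group, with none per sample, and library depth is unknown.

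The members were chosen by 2 things, a symbol that starts with Slc and a digit, and a deposited value of at least 1 FPKM in the larger of the 2 groups. Of 23235 rows in the table, 355 carry such a symbol. Of these, 157 reached the floor of 1 FPKM, 198 did not (65 of them listed at 0 in both groups), and 8 of the 157 were left out by name because they belong to iron, glucose, lactate, cystine or arginine handling. That left 149 members, all with a test by the authors, of which 146 encode transporters. Slc9a3r1, Slc4a1ap and Slc7a6os match by name only, as products that bind or neighbour a carrier. The floor was reached in both groups by 146 members, in LPS+Dex alone by Slc45a4, and in LPS alone by Slc22a18 and Slc45a3. Just inside the floor lay Slc22a18 at 0.883 FPKM in LPS+Dex and 1.03 FPKM in LPS, and just outside it lay Slc25a40 at 0.947 FPKM in LPS+Dex and 0.868 FPKM in LPS.

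The culture was checked against cell type markers. The macrophage genes Csf1r (168 FPKM in LPS+Dex, 142 FPKM in LPS) and Emr1 (388 FPKM in LPS+Dex, 458 FPKM in LPS) were abundant in the authors' deposited table, while Lyz2 was listed at 0 in both groups under a status for loci with too many fragments to quantify, so that its 0 is no measurement. Defining genes of other blood cells were at or near 0, with sums over the list of 0.358 FPKM in LPS+Dex and 0.509 FPKM in LPS for T and NK cells (nearly all Cd4, with Cd3g, Ncr1 and Nkg7 at 0 in both), 0.149 FPKM in LPS+Dex and 0.141 FPKM in LPS for B cells, and 0.0138 FPKM in LPS+Dex and 0.0146 FPKM in LPS for erythroid cells, with the anion exchanger gene Slc4a1 at 0 in both. Stromal genes summed to 2.68 FPKM in LPS+Dex and 2.33 FPKM in LPS, and the neutrophil list to 60.9 FPKM in LPS+Dex and 53.5 FPKM in LPS, nearly all of it S100a8, called higher, and S100a9, called lower. Dendritic cell markers summed to 0.803 FPKM in LPS+Dex and 3.29 FPKM in LPS, with both tested members, Ccr7 and Xcr1, called lower. The part of such cells in the results below was not tested. In bulk RNA, fewer cells of a type and less RNA per cell cannot be told apart.

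By the authors' deposited calls at q under 0.05, 34 of the 149 members were higher and 47 lower in LPS+Dex than in LPS, and 68 did not pass. Among the 9492 tested genes that reach the same floor, 18.7% were called higher and 28.9% lower, and among all 11755 tested genes 17.7% and 25.2%. Because the floor that chose the members reads the same 2 values as the comparison, these counts are a description. Of 81 called members 68 changed by less than 1.5-fold, and 9 were higher and 4 lower by at least that, where 4.01% and 4.97% of tested genes at the floor were called higher and lower by at least 1.5-fold. The median log2 ratio of LPS+Dex over LPS was −0.017 for the members and −0.025 for tested genes at the floor. The standard error of a log2 ratio, obtained by dividing the ratio by the authors' test statistic, sign dropped, and called the implied SE, had a median of 0.062 over the members and ran from 0.048 to 0.19. No member with an absolute log2 ratio above 0.22 was left uncalled.

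**Figure D1:**
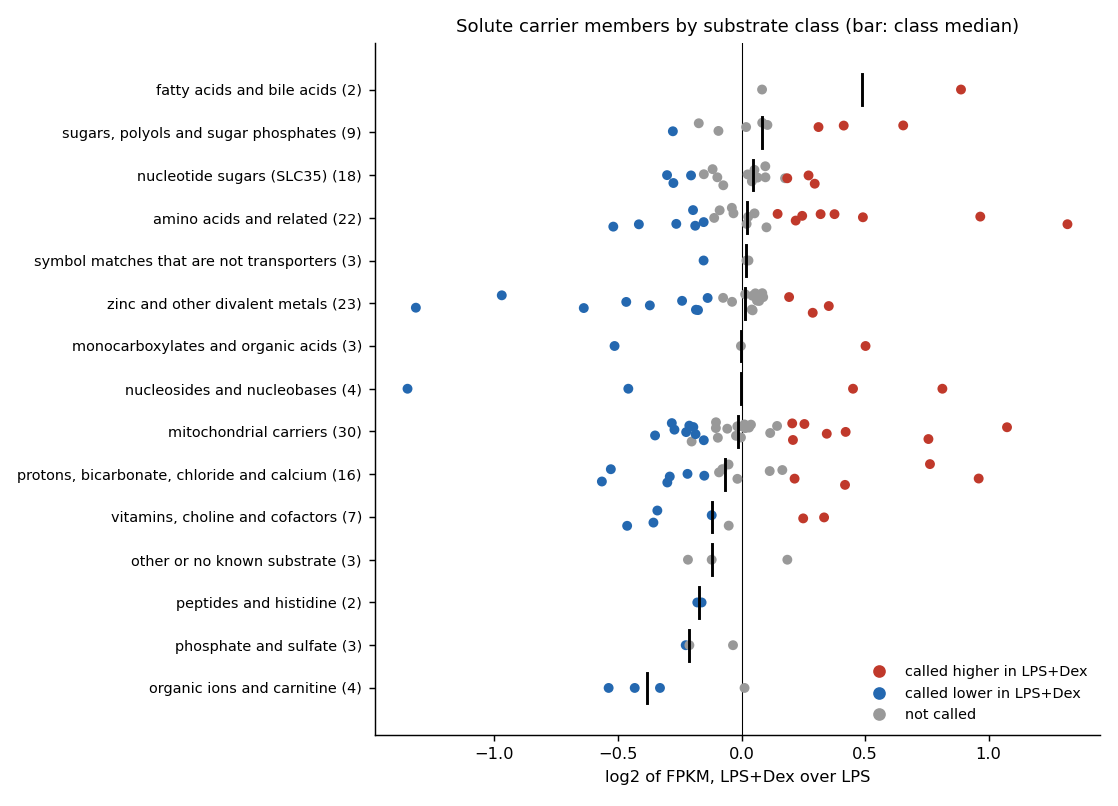
Each point is 1 of the 149 members, placed by its log2 ratio of deposited FPKM in LPS+Dex over LPS (horizontal axis) in the row of its substrate class, with the number of members in brackets; colour gives the authors' call at q under 0.05 and the bar is the class median. Class medians lie between −0.38 and 0.49 while single members reach −1.35 and 1.32.

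Called members were found in every class except that of other or no known substrate, with SLC35 genes kept together by family name. Of 15 classes, counting that of the symbol matches that are not transporters, 6 had a median above 0. This count was 5 with the 8 left-out symbols put back and 9 with ratios centred on the median of genes of at least 1 FPKM. In the larger ones the members called higher and lower stood side by side, with 8 higher and 6 lower among 22 carriers of amino acids and related compounds, 7 and 8 among 30 mitochondrial carriers, 3 and 3 among 18 members of the SLC35 family, 4 and 6 among 16 carriers of protons, bicarbonate, chloride or calcium, and 3 and 9 among 23 metal carriers. The plot of members by substrate class shows the single genes that stand away from the class medians. Over all tested genes at the floor, 18.7% were called higher and 28.9% lower. Among 25 members with a mean of 30 FPKM or more, 4 were called higher and 12 lower with a median log2 ratio of −0.11, and among all 2162 genes at that level 11.0% were called higher and 50.1% lower with a median of −0.12. Ratios in the whole table thus varied with expression level, and calls lost or gained once the median ratio of genes of like level was subtracted are given below as those with the trend on level removed.

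The members with the largest called differences belong to nucleoside, zinc, amino acid and mitochondrial iron transport in the authors' deposited table. Slc28a2 encodes CNT2, a sodium-coupled carrier that takes up purine nucleosides and uridine. It had 45.0 FPKM in LPS+Dex and 115 FPKM in LPS (log2 −1.35, implied SE 0.048), a level 2.55-fold lower with Dex. Slc39a2 encodes the zinc importer ZIP2 and had 1.92 FPKM in LPS+Dex against 4.79 FPKM in LPS (log2 −1.32, implied SE 0.089). In the other direction, Slc43a2, which encodes LAT4, a uniporter of large neutral amino acids, had 17.9 FPKM in LPS+Dex and 7.16 FPKM in LPS (log2 1.32, implied SE 0.058), 2.49-fold higher with Dex. Slc25a37 encodes mitoferrin 1, which brings iron into mitochondria. It had 78.7 FPKM in LPS+Dex and 37.4 FPKM in LPS (log2 1.07, implied SE 0.051). All 4 have a deposited q listed as 0.

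**Figure D2:**
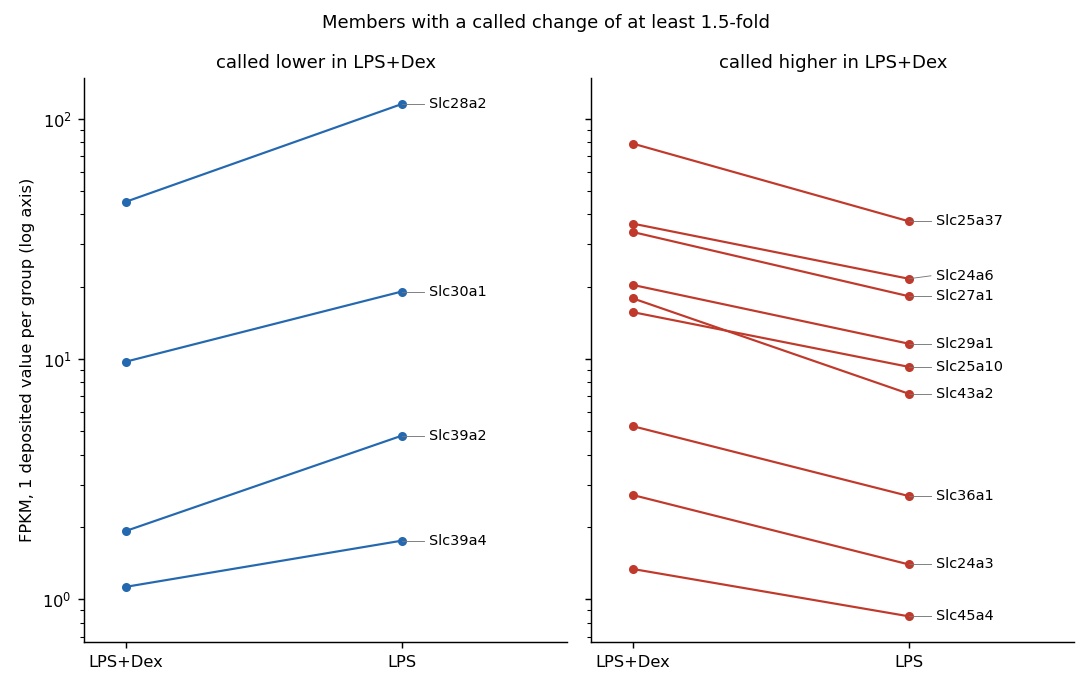
Deposited FPKM (vertical log axis, 1 value per group and no error of its own) in LPS+Dex (left of each panel) and LPS (right) for the 13 members with a called change of at least 1.5-fold; lines join the values of 1 gene. The left panel holds the 4 genes called lower, from Slc39a4 to Slc28a2 at 115 FPKM in LPS, and the right panel the 9 called higher, up to Slc25a37 at 78.7 FPKM in LPS+Dex.

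The rows of these genes lie, on mm9 as the table lists them, on chromosome 2 from 122252212 to 122286866 for Slc28a2, on chromosome 14 from 52513284 to 52516420 for Slc39a2, on chromosome 11 from 75345195 to 75391074 for Slc43a2, and on chromosome 14 from 69859907 to 69903160 for Slc25a37. Promoter windows are shown for the largest fall and the largest rise. They are also shown for Slc30a1 and Slc36a1, a zinc exporter gene and an amino acid carrier gene described below, which changed by nearly as much. Both were picked because their windows hold a motif match, so the presence of a match in them is no finding. Slc24a3 (log2 0.96) and Slc27a1 (log2 0.89) changed by a like amount and are not shown. Slc25a37 had no promoter under its symbol in the reference. The windows are RefSeq's on build GRCm38, the first annotated start of each gene, with 250 bases before and 50 bases after it, all on the + strand. Capitals mark matches on either strand to the glucocorticoid receptor half-site AGAACA or to the core of the metal response element, TGCACNC or TGCGCNC.
Slc28a2 (chr2:122426185-122426484): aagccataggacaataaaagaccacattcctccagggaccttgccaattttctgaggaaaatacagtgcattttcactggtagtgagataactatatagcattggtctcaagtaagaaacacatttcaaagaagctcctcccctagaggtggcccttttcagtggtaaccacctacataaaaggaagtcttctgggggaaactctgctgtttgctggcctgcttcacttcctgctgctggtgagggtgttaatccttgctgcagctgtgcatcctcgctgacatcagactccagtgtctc
Slc43a2 (chr11:75531444-75531743): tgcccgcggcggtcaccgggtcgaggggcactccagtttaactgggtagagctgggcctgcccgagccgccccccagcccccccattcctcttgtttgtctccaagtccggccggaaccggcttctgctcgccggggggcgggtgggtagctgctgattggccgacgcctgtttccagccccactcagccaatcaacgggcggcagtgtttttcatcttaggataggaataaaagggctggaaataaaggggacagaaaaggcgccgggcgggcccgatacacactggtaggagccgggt
Slc30a1 (chr1:191906531-191906830): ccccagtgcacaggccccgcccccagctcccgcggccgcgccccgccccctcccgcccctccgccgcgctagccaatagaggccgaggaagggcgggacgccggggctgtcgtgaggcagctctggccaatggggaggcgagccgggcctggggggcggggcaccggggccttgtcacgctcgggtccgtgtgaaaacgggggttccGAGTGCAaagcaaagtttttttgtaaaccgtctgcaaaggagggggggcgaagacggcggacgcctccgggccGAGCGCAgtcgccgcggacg
Slc36a1 (chr11:55204090-55204389): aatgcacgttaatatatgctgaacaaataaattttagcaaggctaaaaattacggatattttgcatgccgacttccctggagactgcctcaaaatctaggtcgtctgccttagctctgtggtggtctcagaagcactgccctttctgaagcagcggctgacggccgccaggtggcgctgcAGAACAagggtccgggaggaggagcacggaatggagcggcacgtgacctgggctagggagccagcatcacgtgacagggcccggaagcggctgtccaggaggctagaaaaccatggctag

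The Slc30a1 window held 2 metal response element cores, whose first bases lie at −43 and at 31 from the start, and the Slc36a1 window held 1 half-site at −70. No match lay in the windows of Slc28a2, Slc43a2 or Slc39a2. Of 118 members with a promoter in the RefSeq table, 12 (10.2%) held the half-site and 46 (39.0%) the metal response element core, against 19.0% and 25.6% of all 27025 promoters of the same length. The half-site was in 2 of 28 members called higher, 4 of 39 called lower and 6 of 51 not called, and the metal core in 7, 17 and 22 of them. These shares describe letters in the window only. The 27025 promoters were not limited to genes at the floor of 1 FPKM, as the members were. Whether the members differ in these motifs from other expressed genes was not tested.

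The 4 nucleoside and nucleobase carriers all passed the test in the authors' deposited table, 2 higher and 2 lower. Among tested genes at the floor, 18.7% were called higher and 28.9% lower. Slc29a1, which encodes ENT1, the equilibrative nucleoside carrier of the cell surface, had 20.3 FPKM in LPS+Dex and 11.6 FPKM in LPS (log2 0.81, implied SE 0.080). Its lysosomal relative Slc29a3 (ENT3) had 11.3 FPKM in LPS+Dex and 15.5 FPKM in LPS (log2 −0.46, implied SE 0.049). Slc43a3, which encodes a purine nucleobase carrier, had 6.27 FPKM in LPS+Dex and 4.58 FPKM in LPS (log2 0.45, implied SE 0.069). So the concentrative carrier fell while the equilibrative carrier of the same membrane rose. The sum of Slc28a2 and Slc29a1, set together after their values were seen, was 65.3 FPKM in LPS+Dex and 126 FPKM in LPS, and Slc28a2 remained the more abundant of the pair in both groups.

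Among 22 carriers of amino acids and of the related compounds taurine, betaine and creatine, 8 were higher, 6 lower and 8 not called in the authors' deposited table, with a median log2 ratio of 0.024. Tested genes at the floor were called higher in 18.7% and lower in 28.9% of cases. After Slc43a2 the largest rise was that of Slc36a1, which encodes PAT1, a proton-coupled exporter of small neutral amino acids from lysosomes, at 5.25 FPKM in LPS+Dex and 2.69 FPKM in LPS (log2 0.97, implied SE 0.063). Slc16a10, the aromatic amino acid uniporter TAT1, had 51.1 FPKM in LPS+Dex and 40.9 FPKM in LPS (log2 0.32, implied SE 0.052). Slc43a2 and Slc16a10 carry amino acids without coupling to an ion or exchange. The lysosomal glutamine carrier gene Slc38a7 had 17.0 FPKM in LPS+Dex and 14.4 FPKM in LPS (log2 0.25), and the creatine carrier gene Slc6a8 had 25.7 FPKM in LPS+Dex and 19.8 FPKM in LPS (log2 0.38). Smaller rises were those of Slc6a12, which carries betaine and GABA (log2 0.22), and the Slc38 relative Slc38a6 (log2 0.15).

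Among the members, the heteromeric exchangers held 1 gene called higher, 2 lower and 2 uncalled. The shares over tested genes at the floor were 18.7% higher and 28.9% lower. Heteromeric exchangers pair the glycoprotein heavy chain encoded by Slc3a2 with a light chain of the SLC7 family. The light chain gene Slc7a11, left out by name, was also called lower, at 12.0 FPKM in LPS+Dex and 14.6 FPKM in LPS (log2 −0.28). In the authors' deposited table Slc3a2 had 118 FPKM in LPS+Dex and 134 FPKM in LPS (log2 −0.19, implied SE 0.050), a call lost with the trend on level removed. The LAT1 light chain gene Slc7a5 was scarce, at 2.76 FPKM in LPS+Dex and 3.68 FPKM in LPS (log2 −0.42, implied SE 0.073). The LAT2 gene Slc7a8 was the main light chain by level, at 105 FPKM in LPS+Dex and 113 FPKM in LPS, and was not called (q = 0.0741). Slc7a6 and Slc7a7 encode the y+LAT light chains. Slc7a6 was higher at 1.79 FPKM in LPS+Dex and 1.28 FPKM in LPS (log2 0.49), and Slc7a7 was not called at 10.8 FPKM in LPS+Dex and 10.6 FPKM in LPS.

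Other amino acid carriers that fell in the authors' deposited table were the glutamate carrier gene Slc1a2, at 1.95 FPKM in LPS+Dex and 2.80 FPKM in LPS (log2 −0.52, implied SE 0.11), the taurine carrier gene Slc6a6, at 114 FPKM in LPS+Dex and 137 FPKM in LPS (log2 −0.26, implied SE 0.058, not called with the trend on level removed), the PAT family gene Slc36a4 (log2 −0.20) and the arginine and lysine carrier gene Slc7a1 (log2 −0.15). Slc36a1 and Slc36a4, of the same family, thus differed in direction. The glutamine carrier genes Slc1a5, Slc38a1 and Slc38a2 were uncalled. Slc1a5 stood at 5.09 FPKM in LPS+Dex and 5.20 FPKM in LPS. Slc38a1 had 8.94 FPKM in LPS+Dex and 8.62 FPKM in LPS, and Slc38a2 had 16.5 FPKM in LPS+Dex and 16.2 FPKM in LPS. Slc38a9, whose product senses lysosomal arginine, was also uncalled (log2 −0.039), as were Slc6a19 and Slc38a10. Slc38a2 is a target of the amino acid response, and of 12 genes listed for that response 1 was called higher, 3 lower and 8 not called. Of tested genes at the floor, 18.7% were called higher and 28.9% lower.

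**Figure D3:**
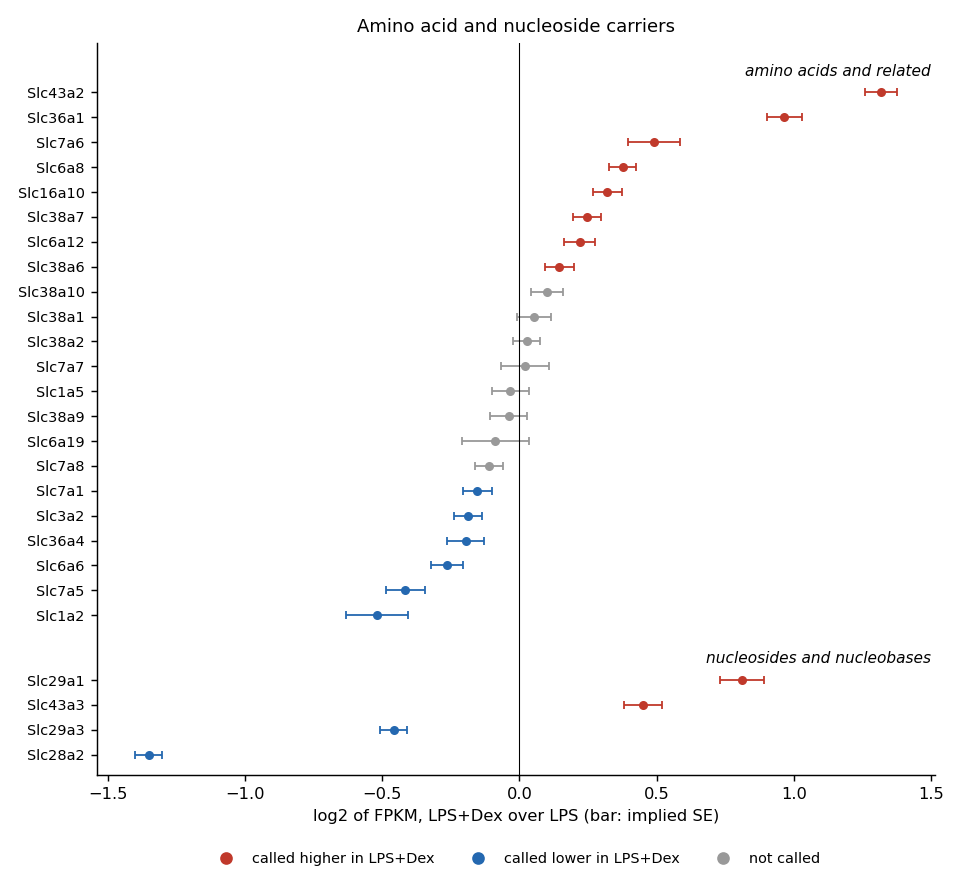
Log2 ratio of deposited FPKM in LPS+Dex over LPS (horizontal axis) with its implied SE for each carrier of amino acids and related compounds (upper block) and of nucleosides and nucleobases (lower block); colour gives the authors' call. Slc43a2 at 1.32 and Slc28a2 at −1.35 lie at the ends.

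Most SLC30 proteins (ZnT) move zinc out of the cytosol and most SLC39 proteins (ZIP) move it in. By the authors' deposited calls, of 6 SLC30 genes, 3 were lower and none higher, and of 12 SLC39 genes, 5 were lower and 1 higher, with medians of −0.11 and −0.017. Of tested genes at the floor, 28.9% were called lower and 18.7% higher, so few higher calls are no trait of families this small. Slc30a1 encodes the zinc exporter of the cell surface and is a classical target of the metal-sensing factor encoded by Mtf1. It had 9.74 FPKM in LPS+Dex and 19.1 FPKM in LPS (log2 −0.97, implied SE 0.049). Slc30a4 had 5.85 FPKM in LPS+Dex and 8.08 FPKM in LPS (log2 −0.47, implied SE 0.054), and Slc30a9 differed by little (log2 −0.18). Slc30a5, Slc30a6 and Slc30a7, which load zinc into the secretory pathway, were not called, with log2 ratios between −0.038 and 0.045.

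Among the importers, the fall of Slc39a2 was followed in the authors' deposited table by that of Slc39a4, at 1.13 FPKM in LPS+Dex and 1.75 FPKM in LPS (log2 −0.64, implied SE 0.12), and of Slc39a10, at 1.99 FPKM in LPS+Dex and 2.57 FPKM in LPS (log2 −0.37). All 3 are scarce. On the log2(FPKM + 1) scale, which tempers changes of scarce genes, Slc39a2 stood at −0.99 and Slc39a4 at −0.37. The most abundant importer gene, Slc39a1, had 90.6 FPKM in LPS+Dex and 107 FPKM in LPS (log2 −0.24), a call lost with the trend on level removed. Slc39a7, whose product releases zinc from the endoplasmic reticulum, was the exception at 59.1 FPKM in LPS+Dex and 51.7 FPKM in LPS (log2 0.19, implied SE 0.049). Slc39a11 was lower by a small amount (log2 −0.18). Slc39a3, Slc39a6, Slc39a9 and Slc39a13 were not called. Slc39a8 and Slc39a14, known as importers induced in inflammation, were not called, Slc39a14 at 22.2 FPKM in LPS+Dex and 21.2 FPKM in LPS (q = 0.32).

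The metallothionein genes, which encode zinc-binding proteins and share the metal response with Slc30a1, were measured beside it. In the authors' deposited table Mt1 had 539 FPKM in LPS+Dex and 454 FPKM in LPS (log2 0.25, called higher), Mt2 had 611 FPKM in LPS+Dex and 585 FPKM in LPS (log2 0.064, not called), and Mtf1 itself was not called at 3.58 FPKM in LPS+Dex and 3.71 FPKM in LPS. Of the copper carriers, Slc31a1, the importer CTR1, had 102 FPKM in LPS+Dex and 83.6 FPKM in LPS (log2 0.29, implied SE 0.051). Slc31a2, encoding CTR2 of endosomes and lysosomes, had 150.2 FPKM in LPS+Dex and 165 FPKM in LPS (log2 −0.14), but stood at 0.049 and was not called with the trend on level removed. Of the SLC41 magnesium carriers, Slc41a2 was higher at 9.52 FPKM in LPS+Dex and 7.45 FPKM in LPS (log2 0.35), and Slc41a1 and Slc41a3 were not called.

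**Figure D4:**
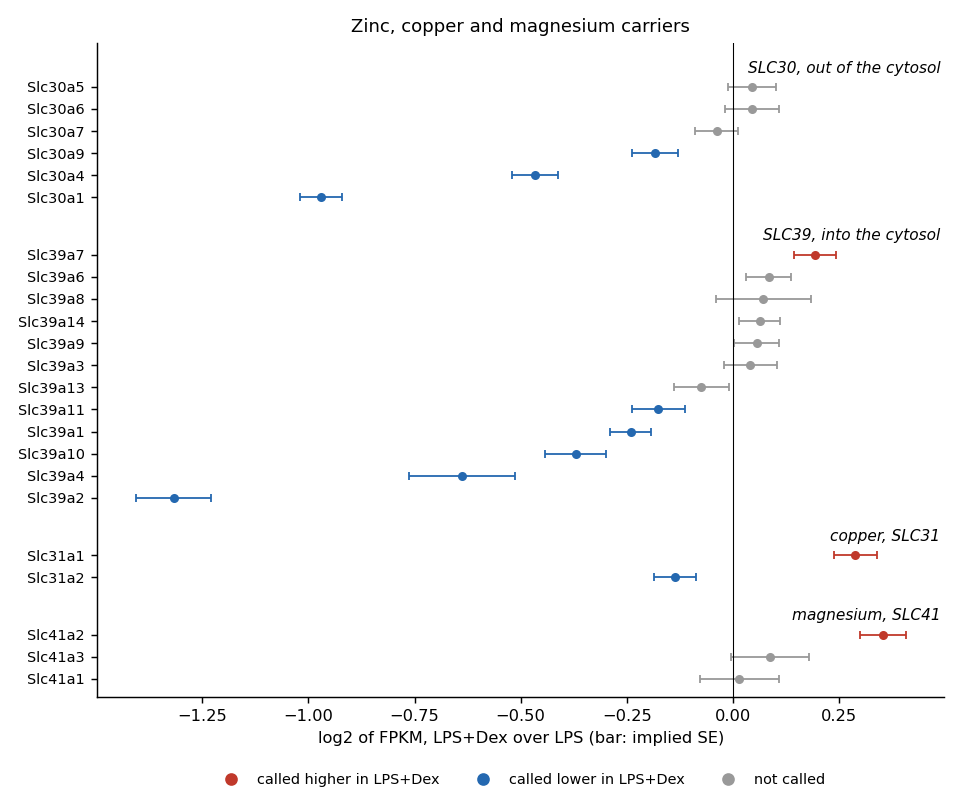
Log2 ratio of deposited FPKM in LPS+Dex over LPS (horizontal axis) with its implied SE for carriers of zinc, copper and magnesium, in blocks by family; colour gives the authors' call. No SLC30 gene was called higher, and Slc39a7 was the sole SLC39 gene that was. Of tested genes at the floor of 1 FPKM, 18.7% were called higher.

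Mitochondrial carriers of the SLC25 family were the largest class, with 30 members, and 15 of them were not called in the authors' deposited table. The others were 7 called higher and 8 lower, beside 18.7% and 28.9% of tested genes at the floor. Besides Slc25a37 the clearest rise was in Slc25a10, which encodes the dicarboxylate carrier that exchanges malate and succinate for phosphate, at 15.7 FPKM in LPS+Dex and 9.27 FPKM in LPS (log2 0.76, implied SE 0.052). Slc25a30 had 4.05 FPKM in LPS+Dex and 3.02 FPKM in LPS (log2 0.42), and Slc25a38, whose product is needed for heme synthesis as a glycine carrier, had 4.75 FPKM in LPS+Dex and 4.11 FPKM in LPS (log2 0.21, q = 0.043, not called with the trend on level removed). Slc25a13 is given with its paralog below. The other rises were Slc25a23, which encodes a calcium-regulated ATP-magnesium carrier (log2 0.34, also not called with that trend removed), and the pyrimidine nucleotide carrier gene Slc25a36 (log2 0.21).

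Pairs of related mitochondrial carriers were set side by side after their values were seen. In the authors' deposited table the mitoferrin 2 gene Slc25a28 had 11.3 FPKM in LPS+Dex and 12.5 FPKM in LPS (log2 −0.15, q = 0.0418, not called with the trend on level removed), whereas Slc25a37 rose. The mitoferrins together had 89.9 FPKM in LPS+Dex and 49.9 FPKM in LPS. Of the aspartate-glutamate carriers of the malate-aspartate shuttle, Slc25a12 (aralar) had 31.6 FPKM in LPS+Dex and 40.3 FPKM in LPS (log2 −0.35, implied SE 0.048), and Slc25a13 (citrin) had 6.22 FPKM in LPS+Dex and 5.21 FPKM in LPS (log2 0.25, implied SE 0.089). Their sum was 37.8 FPKM in LPS+Dex and 45.5 FPKM in LPS. The adenine nucleotide translocase genes were among the most abundant members. Slc25a5 had 175 FPKM in LPS+Dex and 211 FPKM in LPS (log2 −0.27, not called with the trend on level removed), and Slc25a4 was not called at 87.0 FPKM in LPS+Dex and 93.5 FPKM in LPS. How reads that fit both of these similar genes were assigned is not stated.

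The remaining falls in this class by the authors' deposited calls were the ATP-magnesium carrier gene Slc25a25, the glutamate carrier gene Slc25a22, and Slc25a43, Slc25a44 and Slc25a45, with log2 ratios between −0.28 and −0.19. The call of Slc25a22 was lost with the trend on level removed. The carriers of phosphate, citrate, oxoglutarate and acylcarnitines were not called. The phosphate carrier gene Slc25a3 had 176 FPKM in LPS+Dex and 189 FPKM in LPS (q = 0.0744). The citrate carrier gene Slc25a1 had 66.6 FPKM in LPS+Dex and 64.8 FPKM in LPS (q = 0.566), the oxoglutarate carrier gene Slc25a11 had 40.5 FPKM in LPS+Dex and 40.1 FPKM in LPS, and the carnitine-acylcarnitine carrier gene Slc25a20 had 7.18 FPKM in LPS+Dex and 7.25 FPKM in LPS. Of these, Slc25a1 was called higher with the trend on level removed, at 0.18. Other uncalled members were Slc25a4, Slc25a14, Slc25a16, the peroxisomal Slc25a17, Slc25a24, Slc25a26, Slc25a32, Slc25a33, Slc25a39 and Slc25a46. The mitochondrial pyruvate carrier subunit genes Brp44l and Brp44, which lack an Slc symbol, were both called lower, Brp44l at 38.4 FPKM in LPS+Dex and 54.7 FPKM in LPS.

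**Figure D5:**
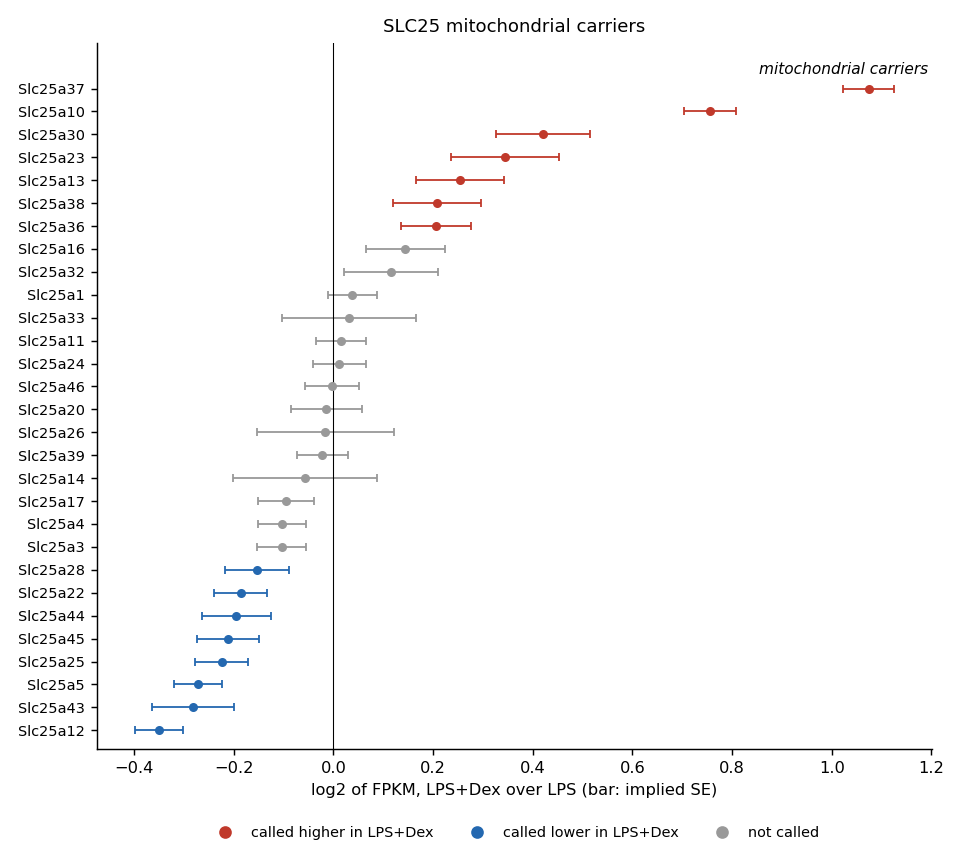
Log2 ratio of deposited FPKM in LPS+Dex over LPS (horizontal axis) with its implied SE for SLC25 mitochondrial carriers, sorted by the ratio; colour gives the authors' call. Slc25a37 at 1.07 and Slc25a10 at 0.76 lie apart from the other carriers.

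Ion exchangers and cotransporters held 4 higher, 6 lower and 6 uncalled members of 16. That is 25% higher and 37.5% lower, where 18.7% and 28.9% of tested genes at the floor were so called. The sodium-calcium-potassium exchanger gene Slc24a3 had 2.72 FPKM in LPS+Dex and 1.397 FPKM in LPS in the authors' deposited table (log2 0.96, implied SE 0.091, 0.63 on the log2(FPKM + 1) scale). Slc24a6, which encodes the mitochondrial sodium-calcium exchanger NCLX, had 36.6 FPKM in LPS+Dex and 21.6 FPKM in LPS (log2 0.76, implied SE 0.058). Their relative Slc24a5 fell, at 3.66 FPKM in LPS+Dex and 5.28 FPKM in LPS (log2 −0.53, implied SE 0.11), but its row shares its whole locus with Myef2, which was not called. The plasma membrane sodium-calcium exchanger gene Slc8a1 was lower (log2 −0.22).

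Of the acid-base carriers in the authors' deposited table, Slc4a7, the electroneutral sodium-bicarbonate cotransporter NBCn1, had 7.80 FPKM in LPS+Dex and 11.5 FPKM in LPS (log2 −0.56, implied SE 0.049). Among the organellar sodium-proton exchangers of the SLC9 family, Slc9a9 was higher at 1.93 FPKM in LPS+Dex and 1.45 FPKM in LPS (log2 0.42), Slc9a7 was lower (log2 −0.30), and Slc9a8 was not called. The cation-chloride family held 1 gene called higher, the potassium-chloride cotransporter gene Slc12a7 (log2 0.21), and 1 called lower, Slc12a9 (log2 −0.29), while Slc12a4 was not called at 35.7 FPKM in LPS+Dex and 37.0 FPKM in LPS. The chloride-bicarbonate exchanger genes Slc4a2 and Slc26a6 were not called. Of 16 listed subunits and accessory proteins of the V-ATPase, which acidifies the organelles these carriers serve, 1 was called higher, 5 lower and 10 not called. Most of them have a mean of 30 FPKM or more, and of all tested genes at that level 11.0% were called higher and 50.1% lower.

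Sugar carriers included the second most abundant member. In the authors' deposited table Slc2a6, a glucose carrier family gene known to be induced by LPS in macrophages, had 492 FPKM in LPS+Dex and 525 FPKM in LPS and was not called (log2 −0.093, q = 0.238). Slc2a8 had 2.19 FPKM in LPS+Dex and 1.64 FPKM in LPS (log2 0.41, implied SE 0.11), and Slc50a1, the mammalian SWEET homolog, had 8.27 FPKM in LPS+Dex and 6.67 FPKM in LPS (log2 0.31). Slc45a4 had 1.34 FPKM in LPS+Dex and 0.850 FPKM in LPS (log2 0.65, implied SE 0.16), and as it passed the floor through LPS+Dex alone its difference is partly fixed by the choice of members. Of the sugar phosphate family, Slc37a3 fell (log2 −0.28), and Slc37a2, a macrophage-rich member, and the glucose-6-phosphate carrier gene Slc37a4 were not called. Slc2a9, which carries urate, and Slc45a3 were also uncalled.

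Many SLC35 proteins bring nucleotide sugars and related donors into the Golgi and endoplasmic reticulum, and the class was formed by family name. Its 18 members differed by little in the authors' deposited table, with all log2 ratios between −0.30 and 0.30. Of them 3 were called higher, 3 lower and 12 neither, beside 18.7% higher and 28.9% lower among tested genes at the floor. The genes called higher were Slc35c2, at 6.58 FPKM in LPS+Dex and 5.36 FPKM in LPS (log2 0.30), the carrier gene Slc35b2 for the sulfate donor PAPS (log2 0.27) and Slc35b4 (log2 0.19). Those called lower were Slc35d1, at 1.86 FPKM in LPS+Dex and 2.29 FPKM in LPS (log2 −0.30), Slc35a5 (log2 −0.28) and Slc35f5 (log2 −0.20). The carriers of CMP-sialic acid (Slc35a1), UDP-galactose (Slc35a2), UDP-N-acetylglucosamine (Slc35a3) and GDP-fucose (Slc35c1) were uncalled, as were Slc35a4, Slc35b1, Slc35b3, Slc35d2, Slc35e1, Slc35e2, Slc35e3 and Slc35e4. With the trend on level removed, Slc35b1 was called higher (0.16), and Slc35e2 (−0.19) and Slc35e3 (−0.18) were called lower.

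Carriers of peptides, vitamins and organic ions included the most abundant member. Slc15a3 encodes PHT2, a proton-coupled lysosomal carrier of histidine and small peptides, among them bacterial muropeptides. It had 592 FPKM in LPS+Dex and 670.4 FPKM in LPS in the authors' deposited table (log2 −0.18, implied SE 0.071, q = 0.0302). With the trend on level removed it stood at 0.0068 and was not called, and its locus overlaps Tmem132a. Its relative Slc15a4, which is needed for signalling from endosomal Toll-like receptors, had 16.3 FPKM in LPS+Dex and 18.2 FPKM in LPS (log2 −0.16, q = 0.0059). With Slc2a6, Slc15a3 made up 27.7% of the summed FPKM of all members in LPS+Dex and 28.7% in LPS.

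Among 7 carriers of vitamins, choline and cofactors, 4 fell and 2 rose by the authors' deposited calls. Of tested genes at the floor, 28.9% were called lower and 18.7% higher. At a mean of 30 FPKM or more, as for Slc48a1 and Slc23a2, these shares were 50.1% and 11.0%. The choline carrier gene Slc44a1 had 24.7 FPKM in LPS+Dex and 34.0 FPKM in LPS (log2 −0.46, implied SE 0.058), and its relative Slc44a2 had 27.3 FPKM in LPS+Dex and 23.0 FPKM in LPS (log2 0.25, implied SE 0.049). Slc48a1, which exports heme from lysosomes after red cells are taken up, had 41.8 FPKM in LPS+Dex and 52.9 FPKM in LPS (log2 −0.34, implied SE 0.049), and its locus overlaps Hdac7. The acetyl-CoA carrier gene Slc33a1 was lower (log2 −0.36), as was the ascorbate carrier gene Slc23a2 (log2 −0.12, q = 0.0458, not called with the trend on level removed). Slc46a1, a proton-coupled folate carrier, was higher at 1.53 FPKM in LPS+Dex and 1.21 FPKM in LPS (q = 0.0327, not called with that trend removed), and the reduced folate carrier gene Slc19a1 was not called.

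Of 4 organic ion carriers in the authors' deposited table, 3 fell and none rose. Among tested genes at the floor, 28.9% were called lower and 18.7% higher, and 4 genes are too few to give the class a trait. The serotonin carrier gene Slc6a4 had 6.85 FPKM in LPS+Dex and 9.95 FPKM in LPS (log2 −0.54, implied SE 0.060). Slc22a4, the ergothioneine carrier, and Slc17a5, which releases sialic acid from lysosomes, were lower by log2 ratios of −0.43 and −0.33, and the carnitine carrier gene Slc22a5 was not called at 2.21 FPKM in LPS+Dex and 2.19 FPKM in LPS. Slc27a1, which encodes the fatty acid transport protein FATP1, had 33.7 FPKM in LPS+Dex and 18.2 FPKM in LPS (log2 0.89, implied SE 0.051), while Slc27a4 was not called. Among monocarboxylate family members, Slc16a13 was higher (log2 0.50), Slc16a6 lower (log2 −0.51) and Slc16a7 uncalled. The family genes Slc16a1 (log2 −0.74) and Slc16a3 (log2 −0.30), left out by name, were more abundant and both called lower. With them put back the class median moved from −0.0024 to −0.30. The phosphate carrier gene Slc20a1 was lower at 20.2 FPKM in LPS+Dex and 23.6 FPKM in LPS (log2 −0.23), with Slc20a2 and the sulfate carrier gene Slc26a2 uncalled. With the trend on level removed, Slc20a2 was called lower (−0.32). Slc10a3, Slc10a7 and Slc22a18, placed in no substrate class, were not called. Of the 3 products that are not transporters, the scaffold gene Slc9a3r1 was lower (log2 −0.15, not called with the trend on level removed).

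Related carriers without an Slc symbol and the genes left out by name give the surroundings of these values. Of 33 listed relatives 27 were found and 16 tested by the authors, and 9 of these were called higher in their deposited table, 4 lower and 3 neither. Of all tested genes, 17.7% were called higher and 25.2% lower. The organic anion carrier gene Slco4a1 had 14.7 FPKM in LPS+Dex and 5.83 FPKM in LPS (log2 1.33, implied SE 0.059), and Slco3a1 had 13.9 FPKM in LPS+Dex and 20.2 FPKM in LPS (log2 −0.54). Among those of lysosomes, Ctns (log2 0.26), Spns1 (log2 0.38) and Pqlc2 (log2 0.36) were called higher, and Mfsd1 and Mfsd8 were not called. The 7 members listed as lysosomal carriers of amino acids, peptides and sialic acid held 2 called higher, 4 lower and 1 not called, with a median log2 ratio of −0.16. Of the 8 solute carriers left out by name, 2 were called higher and 6 lower, between Slc40a1 at log2 −1.81 and Slc7a2 at log2 0.32.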

How the data were processed

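RNA from 6 samples, 3 per group, was sequenced as stranded paired-end libraries, per the labels' protocols. The submitters' processing notes name CASAVA, TopHat 1.4.1, Cufflinks 2.0.2 and build mm9, with no role or order; the annotation, the use of strand and shared reads, and the way replicates were combined are not stated. The deposited table gives 1 FPKM value per gene and group, which depends on library total and transcript length, the authors' test statistic (a score opposite in sign to the fold change), and the deposited p-value and q-value, the latter adjusted over 11755 tested genes. Sample values are absent from it, so no test over samples was run, and depth is unknown.

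Log2 ratios were computed from the FPKM values with Python 3.11.15 and pandas 2.3.3. Members, substrate classes and gene lists were chosen with earlier results of these data known. A call is a q under 0.05. Every member could be named, apart from a few not reported here; full statistics were given by size of change within a class. Loci of 7 members (among them Slc7a7, Slc15a3, Slc20a2, Slc24a5, Slc35a4 and Slc48a1) overlap another row of at least 1 FPKM. The trend on expression level is the median log2 ratio in 20 bins of mean FPKM over tested genes. After its removal p-values were recomputed from the implied SE and adjusted by Benjamini-Hochberg. This step was tested on simulated data with far fewer changed genes than are called here, their directions drawn at random. The simulation cannot show what is removed where many genes of a level change in the same direction.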

Additional observations from a re-analysis of the deposited data

How the results depend on the processing

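With q under 0.01, q under 0.1, a floor of 5 FPKM or of 1 FPKM in both groups, the 8 left-out symbols put back, centring or removal of the trend on expression level, between 23 and 37 members were called higher and between 36 and 53 lower. With a change of at least 1.5-fold required, 9 were called higher and 4 lower. No member shared a row with another symbol, so leaving out such rows changed nothing. The median over the members lay between −0.022 and 0.0081 on the log2 scale and was above 0 when centred (0.0081) and with the trend removed (0.0057). With the trend removed, 2 called members changed sign, Slc15a3 to 0.0068 and Slc31a2 to 0.049; another 11 calls were lost and 7 gained; the cause was not tested. Centring on the median of genes of at least 1 FPKM (−0.025) lost 4 calls and gained 3. The log2(FPKM + 1) scale cannot change a sign and is given only for the size of scarce genes. No paired analysis was possible because the table holds 1 value per group and none per sample, and leaving out each replicate was not run for that reason. The lack of counts and of sample values limits what the error of any single difference can show.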

Other observations

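Below the floor of 1 FPKM, 34 rows with a matching symbol had a test by the authors, and 11 of them were called in the deposited table. Among the 11 is Slc2a4rg-ps, which by its symbol is a pseudogene and not a carrier. Among all 11755 tested genes, 2077 were called higher and 2968 lower. Of these, 1778 and 2743 were among the 9492 tested genes at the floor. Slc29a2, which encodes the equilibrative nucleoside carrier ENT2, had 0.191 FPKM in LPS+Dex and 0.103 FPKM in LPS (log2 0.90, implied SE 0.38). Slc9a5, a sodium-proton exchanger gene, had 0.283 FPKM in LPS+Dex and 0.136 FPKM in LPS (log2 1.06, implied SE 0.22), and Slc7a4 had 0.487 FPKM in LPS+Dex and 0.267 FPKM in LPS (log2 0.86, implied SE 0.21). The fatty acid transport protein gene Slc27a2 had 0.0407 FPKM in LPS+Dex and 0.134 FPKM in LPS (log2 −1.72, implied SE 0.57), the opposite direction to that of Slc27a1. Slc4a11 had 0.172 FPKM in LPS+Dex and 0.351 FPKM in LPS (log2 −1.03, implied SE 0.25). These genes were picked after their values were seen, and their implied SEs exceed those of the members.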
